A study of Mus musculus with 6 samples.

Results

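Sox, Pax and T-box genes encode 3 families of developmental transcription factors that bind DNA through an HMG box, a paired domain and a T-box, respectively. The promoters of these genes were examined for H3K27me3 and H3K4me3 in mouse colonic organoids. Members were chosen by name, as autosomal protein_coding genes of the GENCODE annotation of GRCm38 whose symbol is Sox, Pax or Tbx followed directly by a number. Pax4, Pax6 and symbols with further letters were left out. This gave 37 members, 18 Sox, 7 Pax and 12 Tbx genes, of 20807 autosomal protein_coding genes. The naming rule uses no measured value, but earlier results of these data were known when it was chosen.

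Organoids are epithelial cultures grown as cysts in gel. The wt organoids came from the colonic epithelium of C57BL/6 mice with no engineered allele and were kept without TNFα, an inflammatory cytokine. The wt+TNFα organoids had received TNFα at 40 ng/ml for 3 weeks. Each condition had 1 ChIP-seq library for H3K27me3 and 1 for H3K4me3, each set by the authors against an input of its own condition. With 1 library per group there was no replicate check, no error could be estimated and no test was run, so every difference below compares these libraries.

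Trimethylation of lysine 27 of histone H3, H3K27me3, is laid down by Polycomb repressive complex 2 and marks genes held silent, often over broad domains at developmental regulators. H3K4me3 marks the promoters of active and poised genes. Most Sox, Pax and T-box genes act in particular embryonic lineages, among them neural crest, muscle, kidney, heart, limb and lymphoid cells, and Sox9 is known for its activity in crypt stem and progenitor cells of the intestine.

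The markers fixed for the colonic epithelium, among them the adhesion genes Epcam and Cdh1 and the intestinal factors Cdx1 and Cdx2, had H3K4me3 at 10 of 10 promoters and H3K27me3 at 0 of 10 in both conditions. H3K4me3 was listed at 0 of 6 immune, 0 of 4 endothelial, 0 of 6 fibroblast and muscle and 0 of 3 neuronal and glial marker promoters in either condition. H3K27me3 was listed in wt at 3 of 6, 2 of 4, 4 of 6 and 3 of 3 of them, respectively. In wt+TNFα the endothelial count was 3 and the others were the same. Lack of H3K4me3 thus did not always come with H3K27me3. The H3K27me3 lists differed in extent, with 101 Mb of the autosomes covered in wt against 228 Mb in wt+TNFα. On the X chromosome the lengths were 0.597 Mb and 74.7 Mb. The autosomes had 17.8 Mb under H3K4me3 in wt and 19.5 Mb with TNFα. The Y chromosome held 3 peaks of this mark in wt, whereas wt+TNFα had 0. The study states that the sex of its mice is listed in its source data, but for the mice behind these cultures it was not found in the parts used here. Given the X and Y values, a difference in sex between the cultures and the effect of TNFα cannot be told apart on the X chromosome. No list had a peak on chromosome 1 before position 9237056, a stretch with 15 protein_coding genes and 0 promoters with H3K4me3, against 51.2% of the later genes of that chromosome. Sox17, an endoderm and endothelial factor, lies in that stretch, so its lack of a peak cannot be read.

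Every annotated start of a gene was given a window of 1000 bp to either side, these windows made up its promoter, and a mark was counted where a peak covered at least 1 bp of it. The bases in front of 7 transcript starts, 1 start for each of 7 members, are shown because the members differed in their marks there. CG dinucleotides, in which CpG islands are rich, were present in each. At least 1 CG was present in 92.4% of all autosomal promoters of this length, so its presence does not set these members apart. The sequences are from RefSeq on GRCm38.p6, run 5′ to 3′ for the 250 bases before the start, and have every CG in capitals. All 35 RefSeq promoters found for 27 members were identical to the genome. The other 10 members, without an entry, were Pax3, Sox7, Sox9, Sox10, Sox17, Sox18, Tbx2, Tbx3, Tbx5 and Tbx15.
Sox4, chr13:28953700-28953949, minus strand, 11 CG: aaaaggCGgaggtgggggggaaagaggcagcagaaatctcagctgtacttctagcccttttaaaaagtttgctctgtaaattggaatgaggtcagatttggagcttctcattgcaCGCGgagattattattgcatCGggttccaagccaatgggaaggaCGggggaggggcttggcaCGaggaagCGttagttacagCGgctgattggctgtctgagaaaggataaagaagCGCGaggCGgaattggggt
Sox12, chr2:152398047-152398296, minus strand, 35 CG: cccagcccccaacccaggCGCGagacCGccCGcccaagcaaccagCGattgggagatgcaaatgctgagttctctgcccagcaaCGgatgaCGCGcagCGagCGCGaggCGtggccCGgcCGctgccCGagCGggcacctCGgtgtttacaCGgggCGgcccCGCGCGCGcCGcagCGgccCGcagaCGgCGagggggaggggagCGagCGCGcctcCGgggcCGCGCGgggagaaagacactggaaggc
Sox21, chr14:118237031-118237280, minus strand, 17 CG: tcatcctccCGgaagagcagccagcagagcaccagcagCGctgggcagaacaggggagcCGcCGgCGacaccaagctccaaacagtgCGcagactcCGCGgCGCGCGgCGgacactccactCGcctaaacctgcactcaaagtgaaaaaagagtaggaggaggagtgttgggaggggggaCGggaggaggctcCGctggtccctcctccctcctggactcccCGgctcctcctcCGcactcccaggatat
Tbx1, chr16:18590672-18590921, minus strand, 10 CG: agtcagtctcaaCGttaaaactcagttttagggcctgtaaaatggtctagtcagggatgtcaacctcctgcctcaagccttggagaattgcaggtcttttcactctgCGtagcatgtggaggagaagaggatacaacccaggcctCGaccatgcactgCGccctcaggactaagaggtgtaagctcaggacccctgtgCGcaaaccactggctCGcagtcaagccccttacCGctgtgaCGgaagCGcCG
Sox14, chr9:99876171-99876420, minus strand, 23 CG: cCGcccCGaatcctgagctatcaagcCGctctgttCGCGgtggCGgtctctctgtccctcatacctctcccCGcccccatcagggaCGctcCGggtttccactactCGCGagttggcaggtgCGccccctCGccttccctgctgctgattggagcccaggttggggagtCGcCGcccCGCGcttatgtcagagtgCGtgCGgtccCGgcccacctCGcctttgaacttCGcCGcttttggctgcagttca
Tbx10, chr19:3992502-3992751, plus strand, 3 CG: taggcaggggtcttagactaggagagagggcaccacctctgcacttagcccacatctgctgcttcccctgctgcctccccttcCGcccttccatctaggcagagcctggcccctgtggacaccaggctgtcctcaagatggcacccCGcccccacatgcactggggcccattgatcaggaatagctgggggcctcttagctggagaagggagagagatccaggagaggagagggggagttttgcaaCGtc
Tbx6, chr7:126781233-126781482, plus strand, 6 CG: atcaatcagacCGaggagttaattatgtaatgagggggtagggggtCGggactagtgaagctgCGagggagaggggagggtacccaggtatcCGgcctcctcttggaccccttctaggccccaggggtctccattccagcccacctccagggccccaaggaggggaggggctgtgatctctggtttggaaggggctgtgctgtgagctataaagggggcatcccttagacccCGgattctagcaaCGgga

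Sox4 had 177 of these bases under H3K4me3 in wt+TNFα and 120 in wt, with none under H3K27me3. Sox12 had all 250 bases under both marks in both conditions. All 250 bases of Sox21 were under H3K4me3 alone, whereas Tbx1 had all 250 under H3K27me3 and 21 in wt and 37 in wt+TNFα under H3K4me3 as well. The bases of Sox14, with 23 CG, and of Tbx10, with 3 CG, were wholly under H3K27me3 alone in both conditions. Those of Tbx6 were under no peak. At least 10 CG were present in 21 of the 35 member promoters, or 60%, and in 38.3% of all 31396 autosomal promoters of the same length. The last 14 bases shown for Sox4 and the last 17 for Sox12 lie within a transcript that GENCODE starts further upstream.

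H3K27me3 was the prevailing mark of these genes in the colonic organoids. In wt, 31 of the 37 members (83.8%) had H3K27me3 at the promoter, against a background of 22.3% of all autosomal protein_coding genes. In wt+TNFα the count was 30 (81.1%), against 27.5%. H3K4me3 was present at 7 members (18.9%) in each condition, where the background was 51.8% in wt and 52.6% in wt+TNFα. With peaks at or above the median significance (−log10 q) of their list, it was at 3 members (8.11%) in each, against 31.4% and 32.3%. With both lists of a mark cut to equal covered length, it was at 4 (10.8%) in wt+TNFα, against 47.8%. Without Sox17, H3K27me3 was counted at 31 of 36 members (86.1%) in wt and at 30 of 36 (83.3%) in wt+TNFα.

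All 7 Pax genes had H3K27me3 in both conditions, as did 11 of the 12 Tbx genes. The Sox genes were more mixed, with 13 of 18 in wt and 12 of 18 in wt+TNFα, and 5 of the 7 members with H3K4me3 were Sox genes in both conditions. The remaining members with H3K4me3 were Pax8 and Tbx1. Within the Sox subgroups that share sequence and ancestry, the 3 SoxC genes Sox4, Sox11 and Sox12 each carried a different combination in wt, H3K4me3 only, H3K27me3 only and both marks. In the SoxE group, Sox9 had H3K4me3 only, whereas Sox8 and Sox10, the latter a factor of neural crest and enteric glia, had H3K27me3 only. In the SoxD group, Sox13 had H3K4me3 only, and Sox5 and Sox6, which act together in cartilage, had H3K27me3 only. All 4 genes of the Tbx2 subfamily, Tbx2, Tbx3, Tbx4 and Tbx5, had H3K27me3 only.

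**Figure D1:**
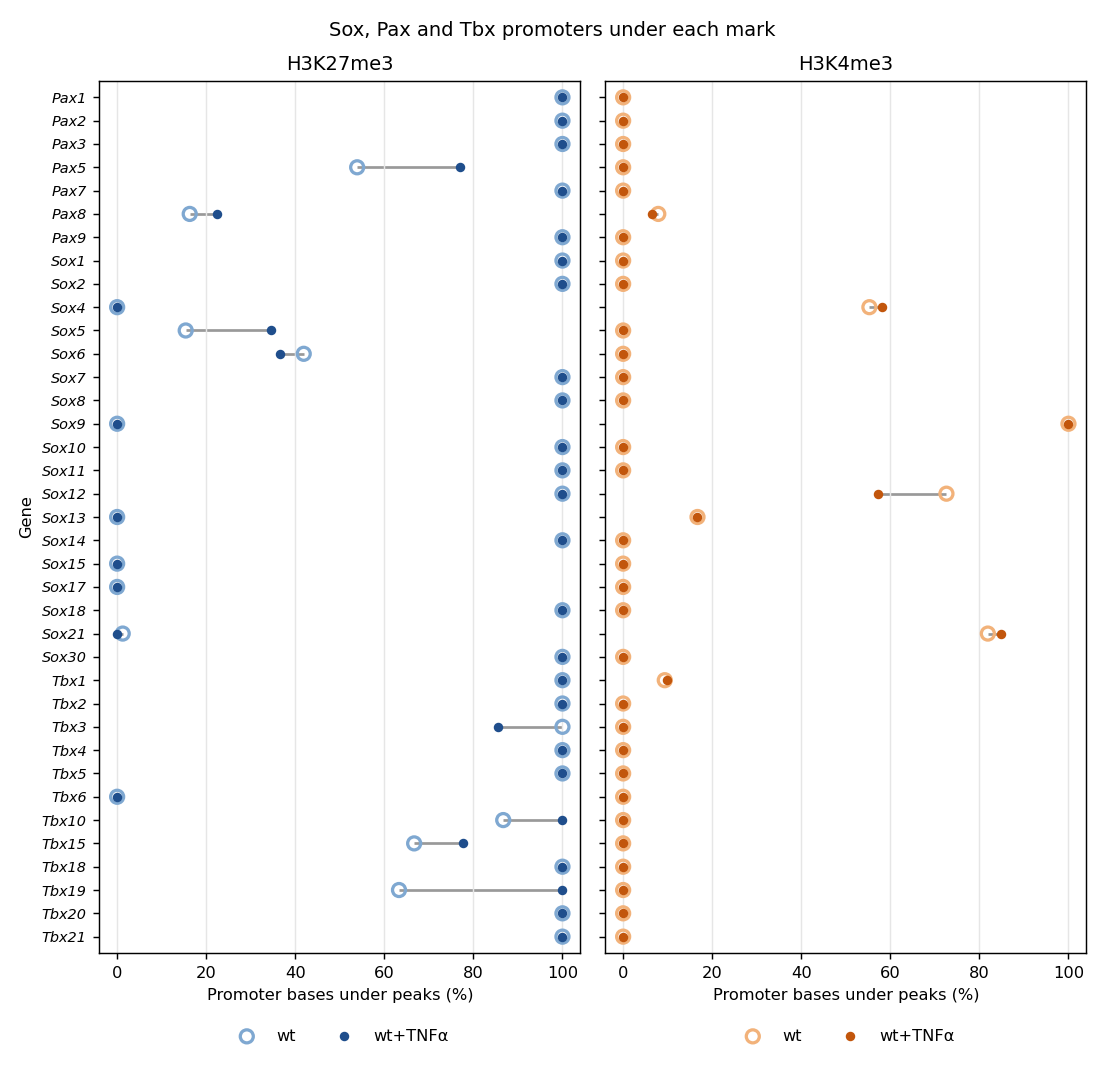
Share of promoter bases under H3K27me3 (left, %) and H3K4me3 (right, %) for each of the 37 members, with open circles for wt, filled circles for wt+TNFα and a grey line between them, 1 library each. The H3K27me3 points of 22 members sit at 100% in both conditions, and H3K4me3 is above 0 for 7 members.

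Coverage by H3K27me3 was complete at most of the marked members. All promoter bases were under H3K27me3 in both conditions at 22 of the 37 members (59.5%), against a background of 5.66%. These were Pax1, Pax2, Pax3, Pax7, Pax9, Sox1, Sox2, Sox7, Sox8, Sox10, Sox11, Sox12, Sox14, Sox18, Sox30, Tbx1, Tbx2, Tbx4, Tbx5, Tbx18, Tbx20 and Tbx21. They include Sox2, a factor of pluripotent and foregut cells, Pax7 of muscle satellite cells, Pax9 of the pharyngeal pouches, and Tbx21, the T-bet factor of T helper 1 cells. Among them, Sox12 and Tbx1 had H3K4me3 as well.

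Most members, like most genes, had the same combination of marks in both conditions. Of the 37 members, 36 (97.3%) had the same combination in wt and wt+TNFα, where the background was 90.3%. With both lists of a mark cut to equal covered length, it was 32 members. H3K27me3 alone was counted at 27 members in each condition. Both marks were counted at 4 members in wt, against a background of 5.39%, and at 3 in wt+TNFα, against 6.70%. With the full lists, the exception was Sox21, which had both marks in wt by 25 bp of H3K27me3 and H3K4me3 only in wt+TNFα.

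**Figure D2:**
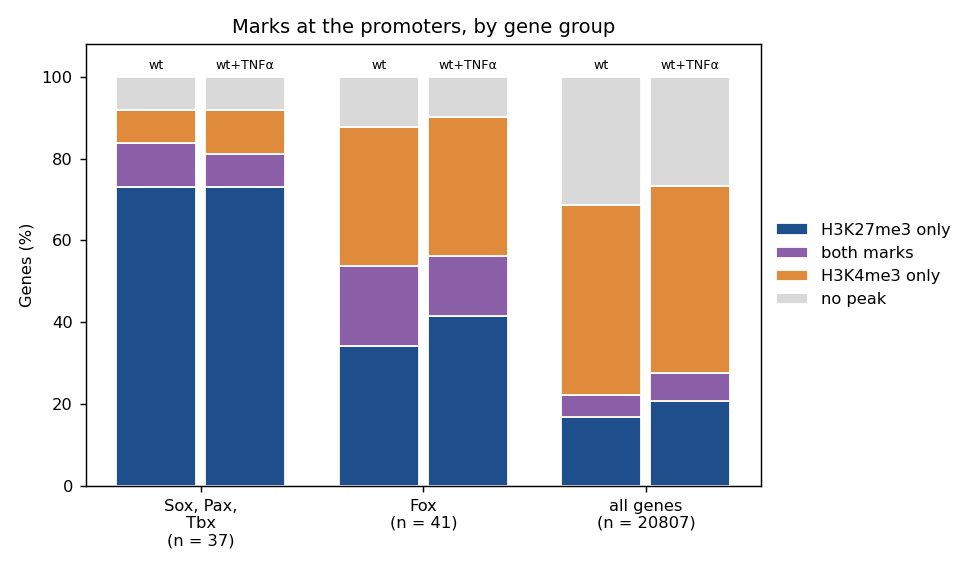
Share of genes (%) with H3K27me3 only, both marks, H3K4me3 only or no peak at the promoter, in wt (left bar of each pair) and wt+TNFα (right bar), for the 37 Sox, Pax and Tbx genes, 41 Fox genes and all 20807 genes. H3K27me3 only makes up 73% of the Sox, Pax and Tbx genes in both conditions and 16.9% of all genes in wt.

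Another family of developmental regulators was described by the same counts. Forkhead genes, 41 in number, had H3K27me3 in wt at 53.7% and H3K4me3 at 53.7%. The Sox, Pax and Tbx genes had 83.8% and 18.9%. The combination was the same in both conditions at 38 of the 41 forkhead genes. All promoter bases were under H3K27me3 in both conditions at 17 of the 41 (41.5%), where 22 had the mark in both. Of the 37 Sox, Pax and Tbx genes it was 22, where 30 had the mark in both. Differences between these groups were not tested.

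Sox9 (ENSMUSG00000000567.5, chr11:112782224-112787760, plus strand) had 100% of its promoter bases under H3K4me3 and 0% under H3K27me3 in both conditions. Its H3K4me3 peak lay at chr11:112781135-112785886 in wt, 4752 bp wide, and was 4826 bp wide in wt+TNFα, from 1089 bp and 1225 bp before the start into the first exons and intron. These widths were at the 99.1 and 98.8 percentiles of all autosomal H3K4me3 peaks of their own list. Its fold enrichment over the local background was 41.1 in wt, at the 85.3 percentile of the list, and 30.7 in wt+TNFα, at the 59 percentile. The nearest H3K27me3 was 18.2 kb from the H3K4me3 peak on the lower-coordinate side and 77.5 kb on the other in wt, and 2.36 kb and 10.5 kb away in wt+TNFα. Within 25 kb of the start, H3K27me3 covered 2.21% of bases in wt and 22.7% in wt+TNFα, where 52.7% of all genes had a higher share in wt+TNFα. The wt+TNFα H3K27me3 peaks closest to Sox9 were weak, with fold enrichments of 1.84 and 1.808 against a median of 1.899 over the autosomal peaks of that list.

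Sox4 (ENSMUSG00000076431.4, chr13:28948919-28953713, minus strand), a SoxC factor of progenitor cells, had 55.3% of its promoter bases under H3K4me3 in wt and 58.2% in wt+TNFα, and none under H3K27me3. Its peak was 4114 bp and 4390 bp wide, with fold enrichments at the 80.1 percentile of the list in wt and the 77.3 percentile in wt+TNFα, and took up most of this gene of a single exon (4008 bp and 4227 bp of exon). No H3K27me3 lay within 25 kb of its start in either condition, and the nearest was 58.4 kb from the H3K4me3 peak in wt and 58.2 kb in wt+TNFα. Sox13 (ENSMUSG00000070643.11, chr1:133382303-133424377, minus strand) had a strong H3K4me3 peak at its most upstream start only, 1 of 5. The fold enrichment was 47.9 in wt, at the 93.6 percentile, and 42.5 in wt+TNFα, at the 86.5 percentile. The other 4 starts had no peak, so only 16.7% and 16.6% of its promoter bases were covered.

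Sox12 (ENSMUSG00000051817.8, chr2:152393611-152398063, minus strand) had both marks over the same bases. Its H3K4me3 peak, 1466 bp wide in wt and 1156 bp in wt+TNFα, lay wholly inside H3K27me3, whose peak was 4.705 kb wide in wt and 9.877 kb in wt+TNFα. The H3K4me3 fold enrichment was 17.9 in wt and 12.5 in wt+TNFα, at the 31.8 and 19 percentiles of the lists, below those of Sox9, Sox4 and Sox13 in either list. H3K4me3 covered 72.6% of its promoter bases in wt and 57.3% in wt+TNFα, with 310 bp lost from both ends of the peak and none added. The H3K4me3 of Sox12 was not counted in either condition with peaks at or above the median −log10 q of each list. Nor was it counted in wt+TNFα with equal covered length. From bulk chromatin, marks on the same molecules and marks in different cells or on different alleles cannot be told apart.

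Tbx1 (ENSMUSG00000009097.10, chr16:18580979-18590671, minus strand), a factor of the pharyngeal apparatus, had a small H3K4me3 peak of 720 bp in wt and 753 bp in wt+TNFα inside an H3K27me3 peak of 33.18 kb and 53.89 kb. The H3K4me3 lay at its most upstream start, 1 of 4, with fold enrichments of 10.42 and 9.001, at the 15.4 and 12.1 percentiles. Like that of Sox12, it was not counted with peaks at or above the median −log10 q, nor in wt+TNFα with equal covered length. Sox21 (ENSMUSG00000061517.8, chr14:118233232-118237030, minus strand), a SoxB factor of neural progenitors, had an H3K4me3 peak of 2564 bp in wt and 2963 bp in wt+TNFα, with H3K27me3 on both sides of its start. The peak overlapped this H3K27me3 over 951 bp (37.1%) in wt and 1079 bp (36.4%) in wt+TNFα. In wt, H3K27me3 ran from 976 bp to 14126 bp downstream of the start and from 1118 bp to 3664 bp upstream of it. In wt+TNFα the same stretches began 1187 bp downstream and 1214 bp upstream. The downstream edge thus lay 211 bp further away, which left out the last 25 bp of H3K27me3 in the promoter.

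Pax8 (ENSMUSG00000026976.15, chr2:24420560-24475599, minus strand), a factor of thyroid and kidney, counted as having both marks, but at different starts. Its H3K27me3 covered part of the windows of its 5 most upstream starts, at chr2:24472153-24475156 in wt and chr2:24472141-24475552 in wt+TNFα. Its H3K4me3 was a weak intronic peak of 513 bp and 419 bp near the start of a retained-intron transcript, 49.2 kb and 49.3 kb from that H3K27me3. The fold enrichments were 4.57 and 5.82, at the 0.668 and 3.41 percentiles, the lowest among the 7 members with H3K4me3 in both lists. When promoter bases under both marks at once were required, a count chosen after seeing the data, 3 members in wt (Sox12, Sox21 and Tbx1) and 2 in wt+TNFα (Sox12 and Tbx1) were left.

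**Figure D3:**
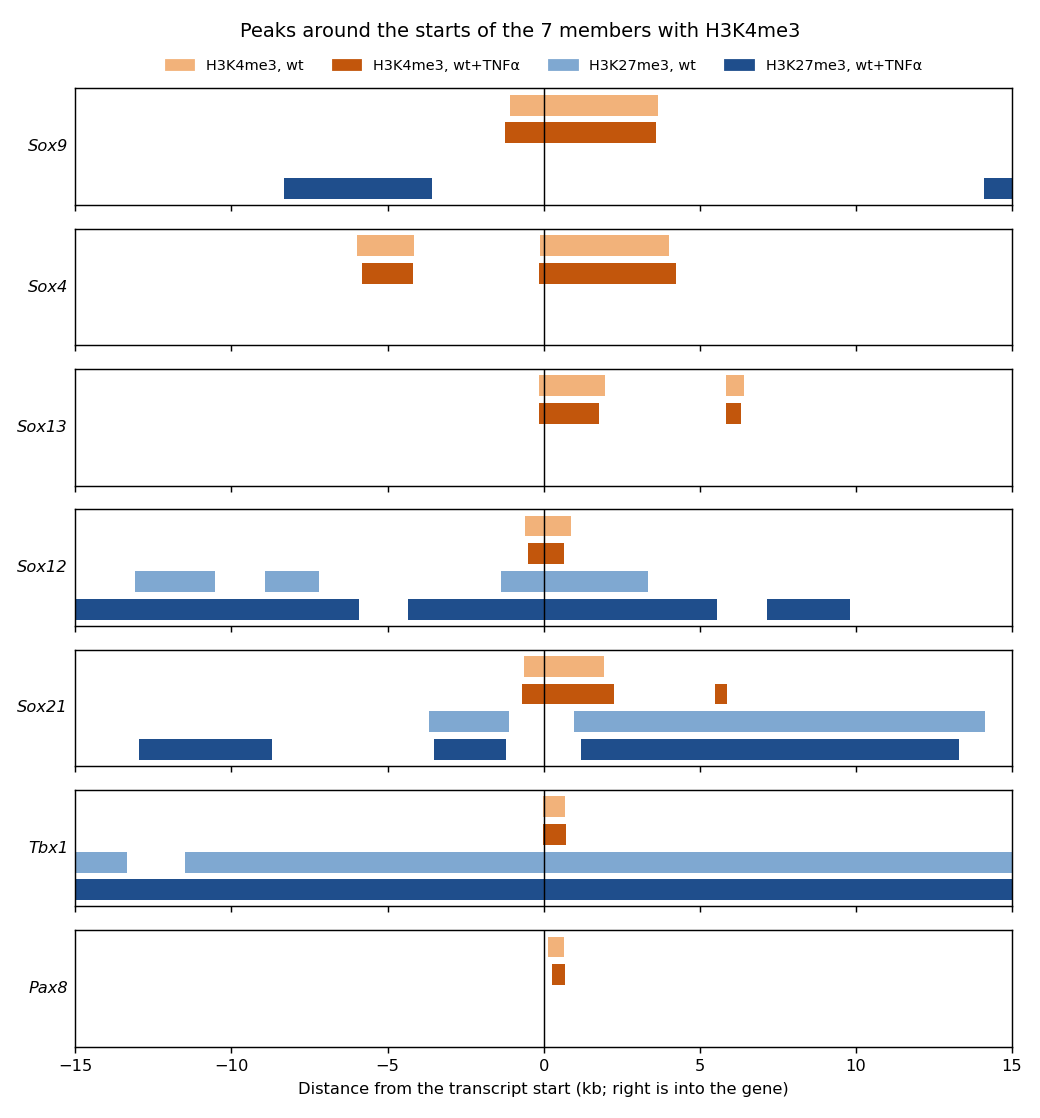
Peaks within 15 kb of the transcript start nearest to the H3K4me3 peak of each of the 7 members with H3K4me3, as distance from the start (kb), with H3K4me3 in orange and H3K27me3 in blue, light for wt and dark for wt+TNFα. H3K4me3 of Sox12 and Tbx1 lies inside H3K27me3, that of Sox21 overlaps it in part, and H3K27me3 appears near Sox9 in wt+TNFα only.

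Sox15, Sox17 and Tbx6 had no peak at the promoter in any list. Near Sox15 the closest H3K4me3 peak was 5.15 kb away in wt and the closest H3K27me3 peak 37.2 kb. For Tbx6, a factor of presomitic mesoderm, these distances were 3.80 kb and 28.4 kb. In wt+TNFα the distances were 5.16 kb and 36.3 kb for Sox15 and 3.75 kb and 26.4 kb for Tbx6. Neither gene thus lay in a stretch without peaks, unlike Sox17.

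Bases that differed between the lists were counted at the promoters. H3K27me3 present in wt only, called lost, was found at 3 members (8.11%), with a background of 5.49%. H3K27me3 present in wt+TNFα only, called gained, was found at 6 members (16.2%), with a background of 18.2%. In wt, 23 of the 37 members (62.2%) and 6.2% of all genes were already fully under H3K27me3 and could not gain it. H3K4me3 was gained at 4 members (10.8%), where the background was 42.0%, and lost at 3 (8.11%), where it was 21.4%. These shares are over all promoters, marked or not. H3K4me3 was present in wt at 18.9% of members and 51.8% of genes, so fewer members had a peak that could change. The H3K4me3 differences were shifts of peak edges, of 33 bp in all at Tbx1, 42 bp at Pax8, 57 bp at Sox4 and 60 bp at Sox21 for the gains and of 3 bp at Sox13, 136 bp at Pax8 and 310 bp at Sox12 for the losses. No member gained or lost a whole H3K4me3 peak at its promoter.

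Among the members with gained H3K27me3, Tbx19, a pituitary factor of the Pomc lineage, had the largest difference in share with all annotated starts, 36.7 percentage points. With 1 start per gene or with starts of protein_coding transcripts only, its difference was 0, and the largest was then that of Pax8 (19.8) or of Sox5 (35.7). H3K27me3 covered 63.3% of its promoter bases in wt and 100% in wt+TNFα. It was present at 2 of its 4 starts in wt, both of protein_coding transcripts, and at all 4 in wt+TNFα, where 2316 bp at its most downstream starts were added. Pax5, the B-lineage factor, had 53.9% and 76.9%, with H3K27me3 at 5 of 7 starts in wt and 6 of 7 in wt+TNFα, and its difference was likewise 0 under both restrictions. Sox5 had 15.4% and 34.6%, and a separate stretch of 1475 bp over its starts near chr6:144208963-144210437 was present in wt+TNFα only, so that 6 of 12 starts had the mark instead of 2 of 12. This gain of 19.2 percentage points depended on weak peaks. It was 0 with H3K27me3 peaks of −log10 q of at least 2, 1.82 with peaks at or above the median −log10 q of each list or equal numbers of peaks, and -15.4, a loss, with equal covered length.

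At the other members with a gain, Tbx15 had 66.7% and 77.7%, Tbx10 86.7% and 100%, and Pax8 16.3% and 22.4%. The Tbx15 piece of 665 bp lay at its most downstream start, 1 of 3, which had no H3K27me3 in wt, and its difference was 0 under all of these threshold settings. At Tbx10 the wt peak of 1.907 kb was replaced by one of 5.108 kb in wt+TNFα, and 267 bp more of the promoter were covered, a difference that was 0 with 500 bp on each side or with upstream bases only. With −log10 q of at least 2, the shares of Tbx10 and Tbx19 both went from 0% to 100%. In 3 of these 6 members, Pax5, Tbx15 and Tbx19, the starts furthest upstream were fully covered in both conditions.

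At Tbx3 and Sox6 the losses of H3K27me3 lay at downstream or internal starts. Tbx3, a factor of limb and mammary gland, had 100% of its promoter bases under H3K27me3 in wt and 85.6% in wt+TNFα. Its wt peak of 41.23 kb read as 2 peaks in wt+TNFα, with a gap of 1490 bp that held 912 bp of the promoter of its most downstream start, a processed transcript. Sox6 had 41.9% and 36.6%, a loss of 1001 bp at an internal start at position 115662365 of chromosome 7, whereas its 5 covered upstream starts were fully under H3K27me3 in both conditions. The Sox6 difference was 0 with −log10 q of at least 2, with peaks at or above that median and with 1 start per gene, and a gain of 0.599 percentage points with 2000 bp on each side. That of Tbx3 was 0 with 1 start per gene or protein_coding starts only. Sox21 had 1.25% and 0%.

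The H3K27me3 domains of these genes were wide. The peak with the most promoter bases had a median width of 18.07 kb in wt and 34.81 kb in wt+TNFα over the 30 members with H3K27me3 in both, against 5.393 kb and 10.24 kb for the 4372 such genes in all. The 22 forkhead genes with H3K27me3 in both had similar medians, 19.34 kb and 31.41 kb. In wt, 24 of 31 members had a peak at or above the 90th percentile of width among all autosomal H3K27me3 peaks of the list, against a background of 36.7% of marked genes. In wt+TNFα it was 24 of 30, against 40.3%. For fold enrichment, 27 of 31 members in wt and 29 of 30 in wt+TNFα reached the 90th percentile of their list, where the background was 53.4% and 56.1%.

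The widest domain in wt was that of Tbx4, a hindlimb factor, with 85.38 kb (chr11:85863883-85949264), and it was 107.9 kb in wt+TNFα. The widest in wt+TNFα was that of Pax2, a factor of kidney and optic stalk, with 137.7 kb (chr19:44708066-44783258 in wt and chr19:44708076-44845758 in wt+TNFα), against 75.19 kb in wt. Pax3, of neural crest and muscle, had 72.55 kb and 96.81 kb, and Pax7 had 54.73 kb and 66.36 kb. At the other end in wt were Sox5, with 1.319 kb and 1.634 kb, Tbx10, Pax8 with 3.004 kb and 3.412 kb, and Tbx19 with 4.27 kb and 19.74 kb.

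In 28 of the 30 members the peak was wider in wt+TNFα, against a background of 85.5% of genes. The ratio of the widths had a median of 1.499 over the members, 1.68 over all genes and 1.46 over 22 forkhead genes. The largest ratios were those of Tbx19 (4.62), Sox6 (4.42) and Tbx21 (3.08), whose domain was 17.12 kb in wt and 52.79 kb in wt+TNFα. The exceptions were Tbx3, whose wt+TNFα peak was split as described, and Sox18, an endothelial factor, with 10.06 kb in wt and 8.168 kb in wt+TNFα. The wider peaks came with a wt+TNFα list that covered more of the genome as a whole. The name of that list, unlike that of the wt list, mentions no spike-in. The part of the greater extent or of a spike-in in the widths of these genes was not tested.

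**Figure D4:**
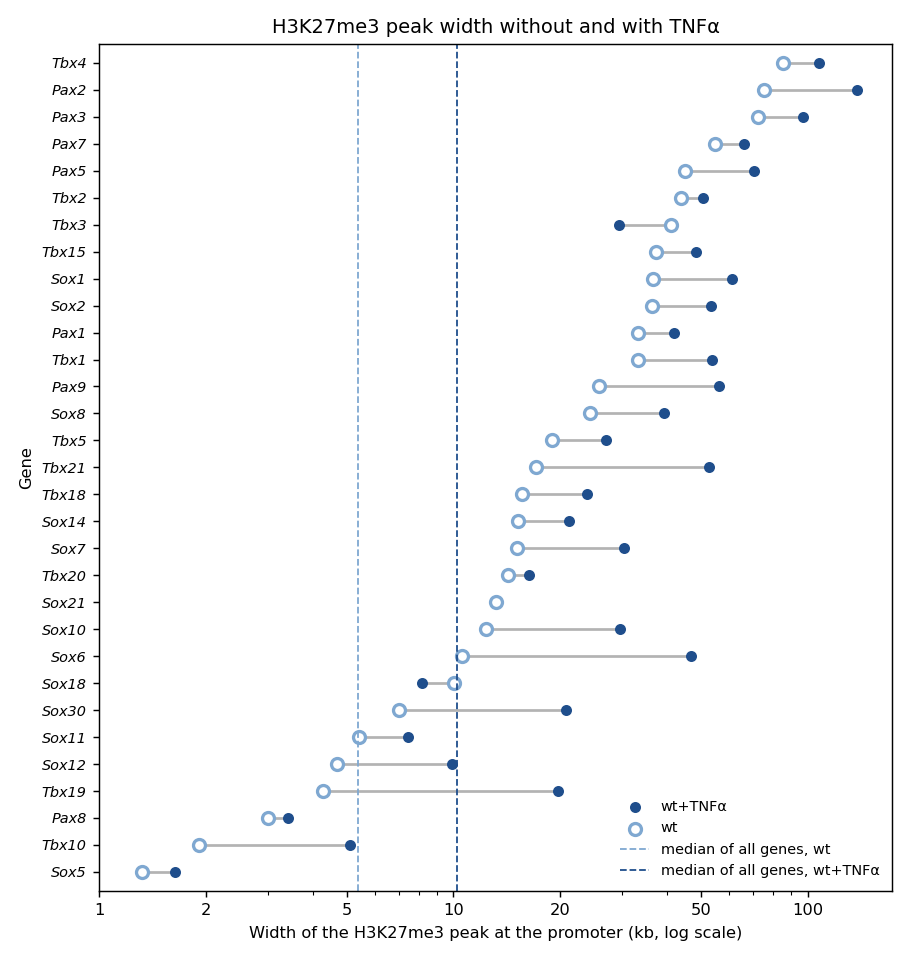
Width (kb, log scale) of the H3K27me3 peak with the most promoter bases for each of the 31 members with H3K27me3 at the promoter in wt, with open circles for wt, filled circles for wt+TNFα and dashed lines for the medians over all genes with H3K27me3 in both conditions. The filled circle is to the right of the open one for all but Tbx3 and Sox18, and Sox21 has no wt+TNFα point because its peak no longer reaches the promoter.

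Most wt domains of the members, like most of those over all genes, lay wholly under wt+TNFα peaks. For 24 of the 31 members, the whole wt peak was under wt+TNFα peaks, against a background of 62.2%. The lowest covered share was 76.9%, at Sox18, and Sox21, Tbx3, Tbx10, Sox10 and Tbx2 had between 92% and 96%. At Pax2, 10 bp of the wt peak lay outside. Only the wt peak of Tbx3 overlapped more than 1 wt+TNFα peak, against a background of 3.77%. In the reverse direction, 0 of 30 wt+TNFα peaks were wholly under wt peaks, against a background of 4.77%. More than 1 wt peak was overlapped by the wt+TNFα peak at 21 of 30 members, against a background of 31.3% of the 5720 genes marked in wt+TNFα. The member peaks were also wider, as given above, and the part of width in this count was not tested. The wt+TNFα peak of Sox1 overlapped 6 wt peaks, and those of Pax9, Sox6 and Tbx1 overlapped 4 each, so separate wt stretches were read as 1 domain.

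Within 25 kb of the most upstream start, H3K27me3 covered a median of 35.7% of bases in wt and 62.5% in wt+TNFα over the 37 members, and 0% and 3.32% over all genes. The share was higher in wt+TNFα at 29 members, against a background of 52.7%, and lower at 2, Sox18 (21% and 20.3%) and Tbx3 (83.5% and 83.1%), against 5.65%. Over all genes, 10965 had a higher share, 1175 a lower and 8667 an equal one. Equal shares were thus more common over all genes, and among loci that differed, higher shares prevailed in both groups. The 6 members with equal shares were Pax2 and Pax3, at 100% in both, and Sox4, Sox15, Sox17 and Tbx6, at 0%. Sox6 had 32.5% in wt and 87.7% in wt+TNFα, and Sox12 had 32.9% and 77.9%. Sox13, with no H3K27me3 within 25 kb in wt, had 3.29% in wt+TNFα.

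A pair of T-box neighbours, Tbx2 and Tbx4, lie 44.47 kb apart on chromosome 11 and lay in adjoining H3K27me3. Over their joint span, chr11:85832551-85916097, H3K27me3 covered 92.2% of bases in 4 peaks in wt and 98% in 2 peaks in wt+TNFα. A single H3K4me3 peak of 404 bp lay in this span in wt and none in wt+TNFα, and it was at no promoter of either gene. Tbx3 and Tbx5 lie 147.9 kb apart on chromosome 5. Their joint span, chr5:119670669-119885219, was covered to 29.7% in wt and 34.9% in wt+TNFα, with no H3K4me3 in either.

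The promoters of the members were richer in CpG than those of all genes. The ratio of observed to expected CpG over all promoter bases had a median of 0.595 over the members and 0.367 over all genes, and of 0.674 over the forkhead genes. Members with H3K27me3 only had ratios from 0.152 (Tbx10) to 0.967 (Sox11), with a median of 0.595, whereas all genes with H3K27me3 only had a median of 0.362. The members with H3K4me3 only, Sox13, Sox9 and Sox4, had 0.45, 0.756 and 0.818. Sox12, with both marks over the same bases, had 0.939 and a GC share of 70.3%. The members whose H3K27me3 share differed between the conditions ranged from 0.152 at Tbx10, 0.24 at Tbx19 and 0.264 at Pax8 to 0.626 at Tbx3 and 0.709 at Sox21. Sox15 and Tbx6, without a peak, had 0.357 and 0.301. These values are a description, and no relation between CpG content and marks was tested.

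**Figure D5:**
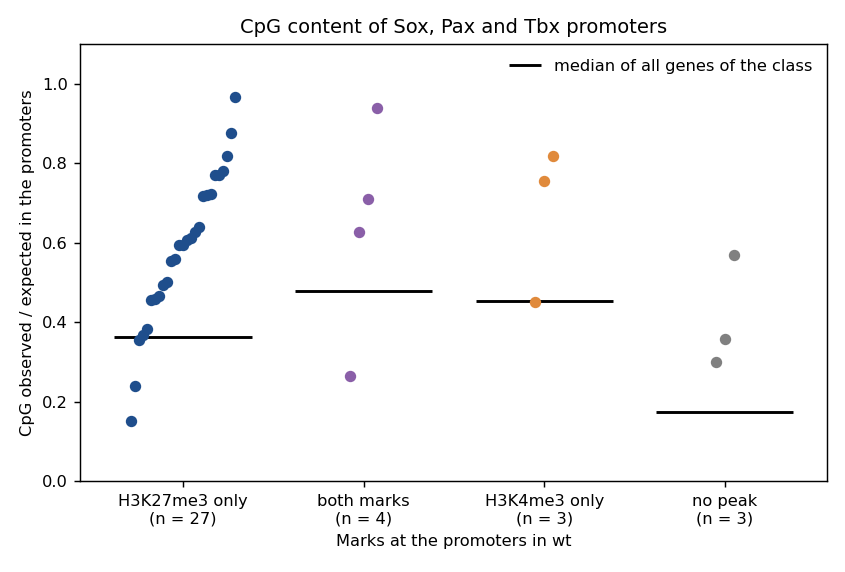
Ratio of observed to expected CpG over all promoter bases of each of the 37 members, grouped by the marks at the promoter in wt, with a black line for the median over all genes of the same group. Of the 27 members with H3K27me3 only, values run from 0.152 to 0.967, and the line for all such genes is at 0.362.

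Relatives outside the naming rule were read the same way. Of the T-box genes with another name, T, the Brachyury gene of early mesoderm, had 100% of its promoter bases under H3K27me3 in both conditions and no H3K4me3. Tbr1, of cortical neurons, had H3K27me3 at 84% and 88.3%, again without H3K4me3. Eomes had both marks, with H3K27me3 over 100% of its promoter bases in wt and 56.2% in wt+TNFα. Its H3K4me3 covered 61.4% and 63.3%. Mga, a broadly active T-box and bHLH factor, had H3K4me3 only. Of the HMG-box genes that act downstream of Wnt, Tcf7 and Tcf7l2 had H3K4me3 only and Lef1 had H3K27me3 at 100% in both conditions. Tcf7l1 had both marks. The H3K4me3 peak of Tcf7l2 was 4.786 kb wide in wt and 5.756 kb in wt+TNFα, similar in width to that of Sox9.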

How the data were processed

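ChIP-seq libraries of H3K27me3 and H3K4me3, 1 for each condition, came from colonic organoids without and with TNFα. Per the submitters' processing notes, the authors aligned reads to GRCm38/mm10 with BWA (2.2), removed duplicates with SAMtools (1.11) and called peaks with MACS2 (2.1.0) against input, as narrow peaks for H3K4me3 and broad peaks for H3K27me3. Each of the 4 deposited lists gives a fold enrichment over local background (a ratio), a p-value and q-value as −log10, and a display score that was not used. Fold enrichments were compared between libraries as percentiles within a list, since each library was scaled separately. The names of all lists but that of wt+TNFα H3K27me3 mention a spike-in. Reads and inputs were not analysed here. The read totals that the study states were nearly equal for both H3K27me3 libraries, and larger in wt+TNFα for H3K4me3 and for the input. Their part in the greater H3K27me3 extent of wt+TNFα was not tested.

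Promoters reached 1000 bp to either side of the transcript starts in the GENCODE annotation (55450 genes). A mark was counted from 1 bp. Lost and gained bases were taken with bedtools subtract (2.31.1), with Python 3.11.15, numpy 2.4.6 and matplotlib 3.10.9 for the rest. Where a gene had several peaks at its promoters, the one with the most promoter bases was described. Observed to expected CpG was the number of CG times the length, over the product of the numbers of C and G. The counting steps were checked on simulated peak lists. With 1 library per group, no p-value, SD or test is given. Members with H3K4me3, members whose marks differed, those with the largest differences in H3K27me3 share and those with the widest peaks were described in full, and the others by range and count. Members and lists were chosen with earlier results of these data known. Alternatives for promoter size, transcript starts, subtraction, overlap, peak threshold and list length were computed. Protein sequences were not analysed here, and a planned comparison with another gene group is not reported here.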

Additional observations from a re-analysis of the deposited data

Results flagged for a closer look

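Sox3 and Tbx22 lie on the X chromosome and were outside the rule. Tbx22 was singled out because H3K27me3 appeared at promoters outside the main comparison, with 0% of its promoter bases under H3K27me3 in wt and 62.4% in wt+TNFα. Sox3 had 100% in both conditions, with a peak of 11.06 kb in wt and 61.16 kb in wt+TNFα. The X chromosome had 0.597 Mb under H3K27me3 in wt, against 74.7 Mb in wt+TNFα. The Y chromosome had H3K4me3 peaks in wt only, and the sex of these mice was not found in the parts of the study's source data used here. A difference in sex between the cultures and the effect of TNFα cannot be told apart in the values of Tbx22 and Sox3.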

How the results depend on the processing

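Of 92 values of the member counts under other settings, 76 stayed within 1.5 times the reported count. The counts with H3K27me3 did so under every alternative run, with 28 to 31 members for wt and 29 to 31 for wt+TNFα. With peaks at or above the median −log10 q of their list, H3K4me3 was counted at 3 members in each condition (Sox4, Sox9 and Sox13), gained at 1 and lost at 1. With equal covered length, H3K4me3 in wt+TNFα was at 4 members and gained at 2. With whole peaks that overlap none of the other condition, H3K27me3 was lost at 1 member (Sox6) and gained at 2 (Sox5 and Tbx15), and H3K4me3 was gained and lost at 0. With 200 bp required, H3K4me3 was gained at 0 and lost at 1 (Sox12). With 1 start per gene, H3K27me3 was lost at 1 and gained at 3 members. H3K27me3 was gained at 10 members with promoters of 2000 bp on each side, and H3K4me3 at 2 with 500 bp. Of 81 differences in the H3K27me3 share of single members under other settings, 41 stayed within 1.5 times the reported value, 38 moved further and 2 turned. The H3K27me3 share of Sox5 differed by -15.4 percentage points with equal covered length, and that of Sox6 by 0.599 with 2000 bp on each side, both with the direction reversed. The cause was not tested. The combination of marks of Sox21 was the same in both conditions with 500 bp or 2000 bp on each side, upstream bases only, or 200 bp required. Over all planned settings, 32 (equal covered length) to 37 of the 37 members had the same combination in both conditions. No paired analysis was possible because each group had 1 library and the labels carry no replicate numbers. Leaving out replicates was not possible for the same reason. The lists give no read counts, so no precision from depth could be set for single peaks.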
